A study of Mus musculus with 12 samples.

Results

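The genes described here encode the proximal signalling machinery of the T cell receptor (TCR): the CD3 chains, the kinases and adaptors that act on them first, the effectors bound to those adaptors, and the phosphatases and ubiquitin ligases that hold the cascade back. They were chosen by name with earlier results of these data known, so that counts of members called do not test the group. The list held 40 names. Grap2 appeared on it also under its other name, Gads, so that the list held 39 genes of the 33696 in the files, and all 39 were found. Single-cell RNA sequencing (10x Genomics, 3′ ends) had been performed on sorted splenic γδ T cells (CD3+, CD4-negative), sorted thymic γδ T cells (CD4- and CD8-negative) and a joint sort of the thymic precursor stages DN1, DN2 and DN3. The adult mice were either wild type or carried a germline knockout of Gfi1, which encodes a transcriptional repressor, both on the C57BL6/J background, so that the knockout was in no way restricted to γδ T cells. WT and KO cells carried different hashtag antibodies and were run in a shared pool, with 2 pools for each of the 3 compartments, which gave 12 libraries, 2 per label and compartment. How many mice went into a library is not stated, so p-values measure the spread between these libraries.

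A TCR has no enzyme of its own. On binding of ligand, the Src family kinases phosphorylate the CD3 chains, ZAP-70 docks there and phosphorylates the scaffolds LAT and SLP-76, and these gather the adaptors and enzymes that lead to calcium flux, Ras and protein kinase C. γδ T cells use the same machinery, and γδ T cells that make IL-17 (γδT17 cells), among them those with a Vγ6 receptor, are known to depend on the kinase Blk during their development and to respond poorly to TCR stimulation as mature cells.

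The libraries held 6795 to 11679 cells and 42091895 to 71663962 unique molecular identifiers (UMIs, each a counted RNA molecule), with medians of 4947 to 6853 UMIs per cell. Levels are given as CPM, counts per 1000000, the UMIs of a gene scaled to that many UMIs of all genes, over all cells of a library, and always for pool 1 and then pool 2. In such sums, fewer cells of a type and less RNA per cell cannot be told apart. Trdc, the γδ TCR constant gene, stood at 1233 to 2051 CPM in the γδ T libraries and at 126 to 199 CPM in the DN1-DN3 libraries, where Ptcra, the pre-TCR chain, stood at 95.4 to 168 CPM. Gfi1 itself was no lower under the label KO: in the spleen it was at 11.8 and 18.0 CPM under the label WT and at 18.1 and 18.1 CPM under the label KO. Whether the knockout removes the stretch counted here is not stated, so Gfi1 was no check of the labels, and groups are named by label throughout. The libraries of a pool shared 0 cell barcodes, and libraries of different pools 5 to 34. The sorted cells differed in type between the labels: the summed level of 10 γδT17 markers was 799 and 772 CPM in the splenic pair labelled WT and 8085 and 8424 CPM in the pair labelled KO, and that of 10 markers of IFN-γ-type γδ T cells was 4150 and 4484 CPM against 528 and 411 CPM. In the thymic γδ T libraries the γδT17 sum was 979 and 835 CPM against 5874 and 7123 CPM, and that of 6 cycling markers 1227 and 1520 CPM against 349 and 288 CPM. In the spleen the cycling sum was 104 and 66.3 CPM against 97.4 and 75.4 CPM. Markers of αβ T cells summed to 1750 and 1809 CPM against 1033 and 997 CPM in the spleen. They summed to 3181 and 3268 CPM against 1556 and 1313 CPM in thymic γδ T cells and to 2085 and 2163 CPM against 2041 and 2048 CPM in DN1-DN3 cells. Most of each sum came from the TCR β constant genes Trbc1 and Trbc2, so that the sums do not measure αβ T cells alone. Trac, the TCR α constant gene, stood at 106 and 69.8 CPM against 52.4 and 58.9 CPM in the spleen. In thymic γδ T cells it stood at 62.9 and 54.3 CPM against 51.2 and 51.5 CPM. Markers of NK cells and ILCs summed to 157 and 160 CPM against 91.2 and 93.4 CPM in the spleen, to 324 and 284 CPM against 156 and 119 CPM in thymic γδ T cells and to 127 and 118 CPM against 181 and 170 CPM in DN1-DN3 cells. Those of erythroid cells summed to at most 169 CPM. Those of myeloid cells summed to 107 and 93.4 CPM against 314 and 339 CPM in the spleen. Without the cells gated as B or myeloid cells this splenic sum stayed at 313 and 338 CPM under the label KO, so that it is no count of myeloid cells. The myeloid sum was 97.0 and 91.2 CPM against 186 and 175 CPM in thymic γδ T cells and 91.7 and 97.6 CPM against 129 and 114 CPM in DN1-DN3 cells. The 10 markers of DN cells summed to 1198 to 1546 CPM in DN1-DN3 libraries and to 135 to 320.1 CPM in the others. The γδT17 and myeloid sums were higher and the αβ T sum lower under the label KO in every compartment. None of the other sums moved the same way in all 3. Their part in the differences below was not tested.

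Together the 39 genes took between 1.07% and 1.44% of all UMIs. In the spleen they took 1.38% and 1.44% under the label WT and 1.16% and 1.18% under the label KO, so that the pairs did not overlap. In thymic γδ T cells the share was 1.40% and 1.34% against 1.40% and 1.43%, and in DN1-DN3 cells 1.15% and 1.07% against 1.26% and 1.08%. Cd3d, Cd3e, Cd3g and Cd247 made up 21.1% and 20.6% of the members' UMIs in the spleen under the label WT and 35.7% and 34.7% under the label KO. Without the CD3 chains the splenic share was 1.09% and 1.15% against 0.748% and 0.773%. Ptprc, the member with the most UMIs under the label WT, held 14.6% and 15.6% of the members' UMIs there, and Cd3g, that with the most under the label KO, 15.4% and 14.8%.

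**Figure D1:**
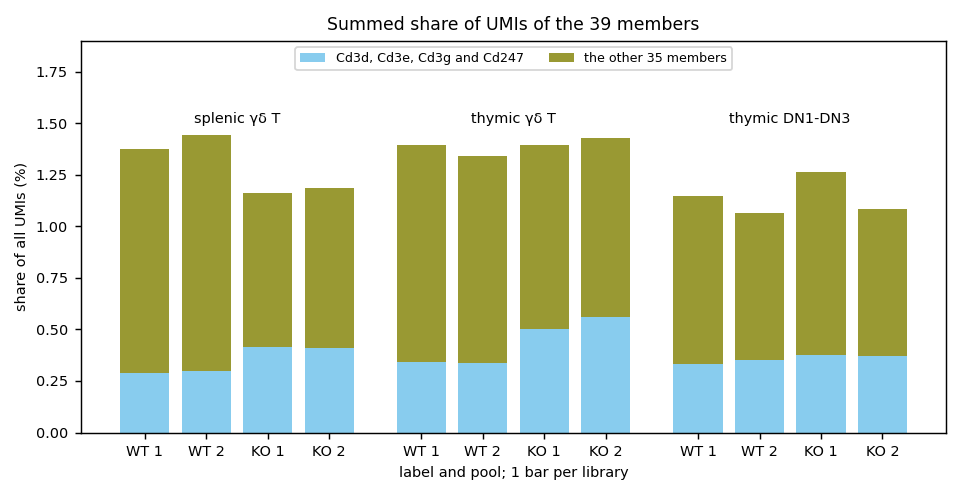
Share of all UMIs (%, y axis from 0) taken by the 39 members in each of the 12 libraries (1 bar per library, by label and pool), split into the 4 CD3 chain genes and the other 35. In the splenic libraries the total stood at 1.38% and 1.44% under the label WT and at 1.16% and 1.18% under the label KO, where the CD3 chain part was larger.

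In splenic γδ T cells 32 of the 39 members differed between the labels, 13 higher and 19 lower in the libraries labelled KO, by the quasi-likelihood test of edgeR at an adjusted p below 0.05 (Benjamini-Hochberg, over the 14914 genes tested). Over all genes 54.8% differed, 28.6% higher and 26.1% lower. The genes that fell included the kinase gene Lck, Themis, Vav3, Ubash3a, Sh2d1a and Fyb, with log2 differences of -5.72 to -3.79, whereas Blk and Clnk rose by 3.82 and 4.51 on the log2 scale and the CD3 chain genes Cd3e, Cd3g and Cd247 rose by 0.46 to 0.96. The median log2 difference was -0.41 over the members and 0.00 over all genes. Of the members that changed, 18 differed by at least 1 on the log2 scale, where 26.9% of all genes were called with such a difference. Of the 18, Syk and Themis2 had a mean below 10 CPM.

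Among the CD3 chains, Cd3e, Cd3g and Cd247 rose and Cd3d did not pass the test. Cd247, which encodes the zeta chain, was at 557 and 523 CPM under the label WT and at 963 and 1007 CPM under the label KO, a log2 difference of 0.96 ± 0.11 (SE, adjusted p = 3.5e-05). Cd3g was at 1113 and 1108 CPM against 1791 and 1752 CPM in the same order (log2 difference 0.77, SE 0.14, adjusted p = 0.000948), and Cd3d at 689 and 756 CPM against 666 and 626 CPM (-0.07, 95% interval -0.38 to 0.25, adjusted p = 0.723). All 3 Src family kinases changed, in both directions. Lck, the kinase that in most T cells starts the cascade, was at 475 and 557 CPM under the label WT and at 19.1 and 21.7 CPM under the label KO, a log2 difference of -4.57 ± 0.22 (SE, adjusted p = 2.17e-07), or 23.7-fold lower. Blk, the Src family kinase of B cells and γδT17 cells, was at 104 and 86.2 CPM under the label WT and at 1204 and 1311 CPM under the label KO, a log2 difference of 3.82 ± 0.28 (SE, adjusted p = 2.73e-06), or 14.1-fold higher. The pairs of libraries were far apart in both genes. Fyn, the other Src kinase of T cells, fell by less, with 357 and 352 CPM against 204 and 181 CPM (log2 difference -0.78, SE 0.14, adjusted p = 0.000789). The summed level of 9 B cell markers in these libraries was 1991 and 225 CPM under the label WT and 397 and 74.2 CPM under the label KO. Without the cells gated as B or myeloid cells the same 32 members were called, with 55.1% of all genes. The B cell sum then still stood at 997 and 224 CPM against 185 and 73.5 CPM.

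Zap70, the kinase that docks on phosphorylated CD3, rose: it was at 70.6 and 76.9 CPM under the label WT and at 162 and 161 CPM under the label KO, a log2 difference of 1.23 ± 0.20 (SE, adjusted p = 0.000602). Its relative Syk, rare in these cells with 68 and 58 UMIs under the label WT and 17 and 13 under the label KO, was lower (log2 difference -2.18, SE 0.31, adjusted p = 0.000215). Of the Tec family kinases, which activate phospholipase C, Txk fell and Tec rose. Txk was at 273 and 333 CPM under the label WT and at 58.3 and 46.0 CPM under the label KO, a log2 difference of -2.44 ± 0.22 (SE, adjusted p = 1.15e-05). Tec was at 79.1 and 80.2 CPM against 122 and 129 CPM (log2 difference 0.75, SE 0.08, adjusted p = 2.08e-05). Among the 11 scaffolds and adaptors 4 rose, 4 fell and 3 did not pass the test. Lat, the membrane scaffold, was at 199.8 and 225 CPM under the label WT and at 487 and 462 CPM under the label KO, a log2 difference of 1.25 ± 0.11 (SE, adjusted p = 6.72e-06). Its partners stayed nearer to equal: Lcp2, which encodes SLP-76, was at 196 and 201 CPM against 196 and 195 CPM (0.07, 95% interval -0.20 to 0.34, adjusted p = 0.639), and Grb2 and Grap2 were not called either, at 0.05 and -0.15 on the log2 scale.

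Clnk, a relative of SLP-76 first known from mast cells and other blood cells, showed the largest rise among the members: it was at 58.8 and 53.0 CPM under the label WT and at 1143 and 1239 CPM under the label KO, a log2 difference of 4.51 ± 0.53 (SE, adjusted p = 6.25e-05). Sh2d1a, which encodes the adaptor SAP of the SLAM family receptors, was at 173 and 197 CPM under the label WT and at 9.06 and 11.4 CPM under the label KO, a log2 difference of -4.07 ± 0.23 (SE, adjusted p = 7.13e-07). Fyb and Skap1 encode a pair of adaptors that bind each other and link the TCR to integrins, and both fell. Fyb was at 497 and 551 CPM under the label WT and at 37.7 and 33.2 CPM under the label KO, a log2 difference of -3.79 ± 0.24 (SE, adjusted p = 1.17e-06). Skap1 was at 1672 and 1704 CPM under the label WT and at 735 and 705 CPM under the label KO, a log2 difference of -1.13 ± 0.12 (SE, adjusted p = 3.16e-05). The lower adaptors also included Nck1 (-0.55), and the higher ones Grap (0.38) and Sh2d2a (0.65). In each of the adaptors that changed, the pair of libraries labelled KO lay wholly on 1 side of the pair labelled WT. The same held for Lcp2 and Grap2, which were not called. Separate pairs, here and below, are thus no sign of a change by themselves.

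None of the 5 effectors rose and 3 fell. Vav3, a guanine nucleotide exchange factor, was at 92.2 and 87.0 CPM under the label WT and at 4.04 and 2.69 CPM under the label KO, a log2 difference of -4.66 ± 0.27 (SE, adjusted p = 7.51e-07), or 25.2-fold lower. Its relatives differed less: Vav1 was at 76.0 and 79.7 CPM against 51.3 and 53.1 CPM (log2 difference -0.48, SE 0.08, adjusted p = 0.000692), and Vav2 at 5.80 and 4.43 CPM against 4.19 and 3.02 CPM (-0.41, 95% interval -0.87 to 0.05, adjusted p = 0.119). Prkcq, the protein kinase C isoform of T cells, was at 625 and 671 CPM under the label WT and at 114 and 116 CPM under the label KO, a log2 difference of -2.39 ± 0.20 (SE, adjusted p = 5.88e-06). Plcg1, the phospholipase itself, was not called (0.20, 95% interval -0.02 to 0.43, adjusted p = 0.11). Themis, which binds Grb2 and is needed for thymocyte selection, showed the largest fall of any member: it was at 959.8 and 962 CPM under the label WT and at 16.1 and 18.1 CPM under the label KO, a log2 difference of -5.72 ± 0.14 (SE, adjusted p = 1.89e-08), or 52.6-fold lower. Themis2 was also lower but rested on 21 and 8 UMIs against 2 and 3.

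The negative regulators divided as well. Of the 6 phosphatase genes, 2 rose and 3 fell. Ubash3a, which encodes the suppressor Sts-2, was at 60.8 and 67.9 CPM under the label WT and at 2.33 and 2.10 CPM under the label KO, a log2 difference of -4.77 ± 0.13 (SE, adjusted p = 2.4e-08), while its relative Ubash3b, which encodes Sts-1, was at 124 and 111 CPM against 127 and 160.0 CPM (0.38, 95% interval -0.31 to 1.07, adjusted p = 0.326). Ptprc, which encodes CD45 and both activates and restrains Src kinases, was at 2010 and 2243 CPM under the label WT and at 717 and 792 CPM under the label KO, a log2 difference of -1.40 ± 0.13 (SE, adjusted p = 1.1e-05). Ptpn22 fell (-0.83), and Ptpn6, which encodes SHP-1, and Ptpn2 rose (0.91 and 0.41). Csk, the kinase that switches Src kinases off, rose slightly, and Pag1, which recruits it to the membrane, fell (0.36 and -0.73). Both CBL ubiquitin ligases fell. Cblb was at 349.7 and 358 CPM under the label WT and at 108 and 108 CPM under the label KO, a log2 difference of -1.61 ± 0.09 (SE, adjusted p = 5.94e-07). Cbl was at 294 and 297 CPM under the label WT and at 128 and 137 CPM under the label KO, a log2 difference of -1.06 ± 0.08 (SE, adjusted p = 3.48e-06).

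Of 40 other genes of the TCR pathway, which act further downstream or as co-receptors, 15 were higher and 15 lower in the splenic libraries labelled KO. The largest differences among them were those of Trat1, a TCR-associated transmembrane adaptor (-5.12), of the co-stimulatory receptor Cd28 (-4.64) and of the adhesion receptor Cd2 (-2.91, all log2).

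**Figure D2:**
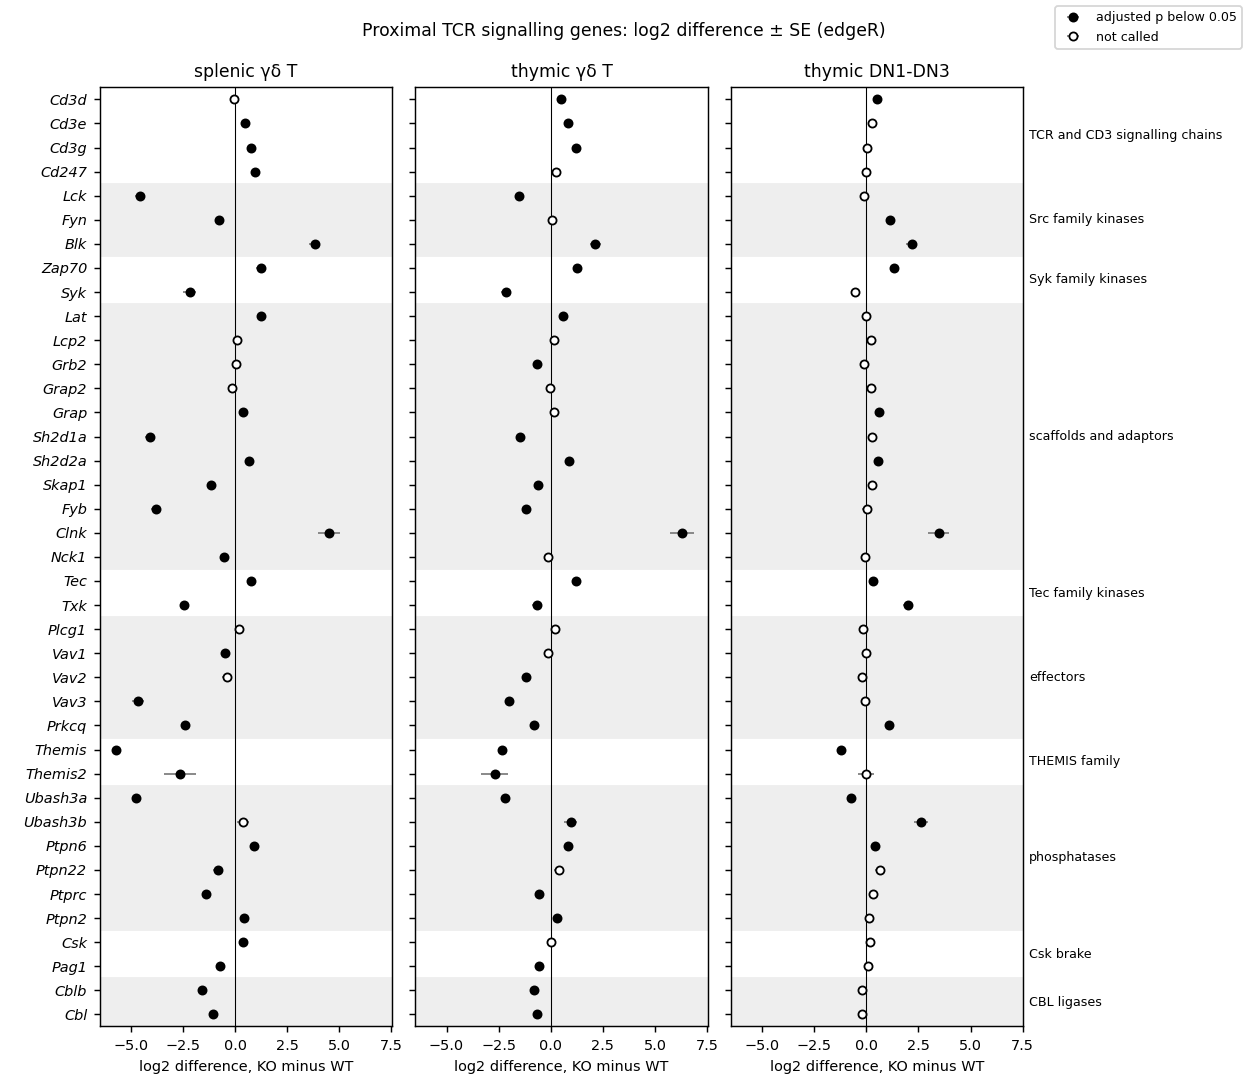
Log2 difference (libraries labelled KO minus WT, x axis, bars ± SE from edgeR) of each of the 39 members, grouped by role, in splenic γδ T, thymic γδ T and DN1-DN3 cells. Filled points passed the test: 32, 29 and 14 members, with 19, 17 and 2 of them lower, and Themis lowest in the spleen at -5.72.

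In thymic γδ T cells 29 members changed, 12 higher and 17 lower in the libraries labelled KO, where 49.8% of all genes were called, 26.1% higher and 23.7% lower. The median log2 difference was -0.03 over the members and 0.00 over all genes. Lck, Themis, Vav3, Ubash3a, Sh2d1a and Fyb were again lower and Blk, Zap70 and Clnk higher, with smaller differences than in the spleen for the first 6 and for Blk, as tested below. Lck was at 338 and 323 CPM under the label WT and at 133 and 77.2 CPM under the label KO, a log2 difference of -1.54 ± 0.19 (SE, adjusted p = 0.00012). Themis was at 808 and 882 CPM under the label WT and at 169 and 137 CPM under the label KO, a log2 difference of -2.35 ± 0.12 (SE, adjusted p = 1.29e-06). Vav3 was at 157 and 138 CPM under the label WT and at 43.6 and 25.2 CPM under the label KO, a log2 difference of -1.99 ± 0.23 (SE, adjusted p = 8.82e-05). In these genes the library labelled KO of pool 2 was the lowest. Ubash3a was at 54.9 and 55.3 CPM against 11.7 and 10.1 CPM (log2 difference -2.22, SE 0.11, adjusted p = 1.63e-06), Sh2d1a at 305 and 320.4 CPM against 132 and 76.2 CPM (log2 difference -1.48, SE 0.21, adjusted p = 0.000282) and Fyb at 551 and 512 CPM against 279.8 and 154 CPM (log2 difference -1.18, SE 0.21, adjusted p = 0.00129), and no pair overlapped. The 2 libraries labelled KO differed from each other by more than in the spleen for Lck, Vav3, Sh2d1a and Fyb, with pool 1 higher, and the IFN-γ-type marker sum was also higher in pool 1, at 793 against 514 CPM. Of that sum Gzma alone made up 387 against 213 CPM. The authors also report Gzma in immature thymic γδ T cells, so that in the thymus the sum does not measure IFN-γ-type cells alone.

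Blk was at 259 and 218 CPM under the label WT and at 914 and 1000 CPM under the label KO, a log2 difference of 2.13 ± 0.26 (SE, adjusted p = 0.000105). Clnk was at 14.1 and 17.6 CPM under the label WT and at 1032 and 1286 CPM under the label KO, a log2 difference of 6.32 ± 0.58 (SE, adjusted p = 2.22e-05), or 79.8-fold higher, the largest difference of any member in any compartment. Zap70 was at 80.4 and 72.6 CPM under the label WT and at 157 and 177 CPM under the label KO, a log2 difference of 1.25 ± 0.20 (SE, adjusted p = 0.00064). In all 3 genes both libraries labelled KO lay above both labelled WT. Tec was at 48.8 and 44.6 CPM against 99.2 and 96.7 CPM (log2 difference 1.19, SE 0.08, adjusted p = 4.5e-06). Among the CD3 chains Cd3g was at 1179 and 1257 CPM under the label WT and at 2299 and 2820 CPM under the label KO, a log2 difference of 1.20 ± 0.14 (SE, adjusted p = 7.49e-05), and Cd3e and Cd3d rose by 0.85 and 0.51. Cd247, which rose in the spleen, was not called (0.25, 95% interval 0.01 to 0.48, adjusted p = 0.0781). The other calls were smaller than 1 or concerned Syk, Vav2 and Themis2, whose means were below 10 CPM (-2.15, -1.19 and -2.68): Lat, Sh2d2a, Ubash3b, Ptpn6 and Ptpn2 were higher, and Grb2, Skap1, Txk, Prkcq, Ptprc, Pag1, Cblb and Cbl lower. Of the 40 other pathway genes 10 were higher and 10 lower, led by the adaptor Lax1 (2.22), Trat1 (-2.00) and Cd28 (-1.99).

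**Figure D3:**
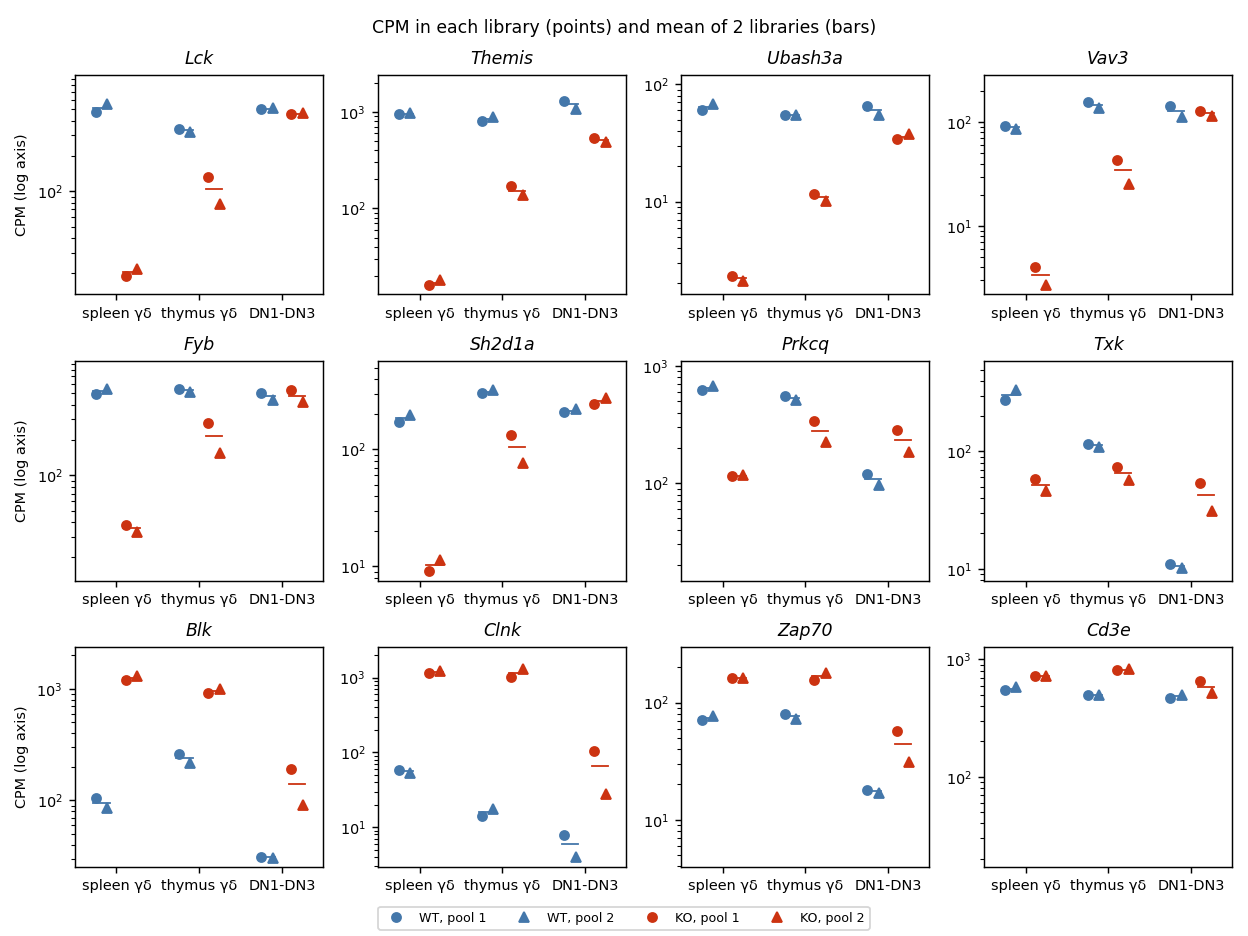
CPM on a log axis of 12 members in each of the 12 libraries (circles, pool 1; triangles, pool 2; blue, labelled WT; red, labelled KO; horizontal bars, mean of 2 libraries). Lck, Themis, Ubash3a, Vav3, Fyb and Sh2d1a of the libraries labelled KO lie far below those labelled WT in the spleen, less far in thymic γδ T cells, and in DN1-DN3 cells this holds for Themis and Ubash3a, whereas Blk and Clnk lie above in all 3 compartments.

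An interaction test asked whether the difference between the labels was itself another in the spleen than in thymic γδ T cells. It was so for 20 of the 39 members, 4 with a more positive and 16 with a more negative difference in the spleen, where 29.6% of all genes were called, 13.6% and 15.9% in those directions. With ribosomal, Gm-numbered and mitochondrial genes kept in the fit the split was 6 and 13, with 27.2% of all genes called. The median was -0.40 over the members and -0.05 over all genes. The log2 difference of Themis in the spleen minus that in the thymus was -3.37 ± 0.16 (SE, adjusted p = 5.05e-06), that of Lck -3.03 ± 0.27 (SE, adjusted p = 7.48e-05) and that of Vav3 -2.67 ± 0.34 (SE, adjusted p = 0.000465). Fyb followed with -2.61 ± 0.31 (SE, adjusted p = 0.000312), Sh2d1a with -2.60 ± 0.30 (SE, adjusted p = 0.000287) and Ubash3a with -2.56 ± 0.17 (SE, adjusted p = 1.55e-05). These 6 genes fell in both tissues and further in the spleen. Txk and Prkcq, which also fell in both, gave -1.77 ± 0.30 (SE, adjusted p = 0.0022) and -1.57 ± 0.27 (SE, adjusted p = 0.00222). Blk rose more in the spleen, by 1.69 ± 0.35 (SE, adjusted p = 0.00631), beside a lower level there in the libraries labelled WT, 104 and 86.2 CPM against 259 and 218 CPM. Ptpn22 was called lower in the spleen only, and its difference between the tissues was -1.20 ± 0.31 (SE, adjusted p = 0.0161). It was no longer called without the splenic library labelled KO of pool 1 (-1.15, adjusted p = 0.052) or the thymic library labelled WT of pool 2 (-1.23, adjusted p = 0.0507). With the pool as a block 25 members and 35.1% of all genes were called. Clnk, which rose in both tissues, was among the 5 members added by the block, at -1.81 ± 0.25 (SE, adjusted p = 0.0032), where the fit without the block gave -1.81, 95% interval -3.28 to -0.34, adjusted p = 0.0639. The others were Cd3d (-0.58), Cd3g (-0.42), Vav2 (0.78) and Csk (0.34). For Zap70 the differences in the 2 tissues were 1.23 and 1.25, and their difference was -0.03, 95% interval -0.66 to 0.61, adjusted p = 0.964. Of the 40 other pathway genes 7 and 11 were called, led by Trat1 (-3.12), Cd28 (-2.65) and Lax1 (-1.91).

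The labels were also compared in DN1-DN3 cells, and no test set these differences against those in γδ T cells. Of the 39 members 14 changed, 12 higher and 2 lower in the libraries labelled KO, against 23% of all genes, 15.2% higher and 7.72% lower. The median was 0.18 over the members and -0.02 over all genes. Lck, Vav3 and Fyb, called lower in both sorts of γδ T cells, were not called: Lck was at 498 and 512 CPM under the label WT and at 456 and 462 CPM under the label KO (-0.14, 95% interval -0.56 to 0.28, adjusted p = 0.636), Vav3 gave -0.06, 95% interval -0.55 to 0.44, adjusted p = 0.878, and Fyb 0.01, 95% interval -0.46 to 0.48, adjusted p = 0.977. Themis fell here too: it was at 1302 and 1081 CPM under the label WT and at 540.1 and 485 CPM under the label KO, a log2 difference of -1.22 ± 0.11 (SE, adjusted p = 8.41e-05). Ubash3a was at 65.3 and 54.7 CPM against 34.1 and 37.6 CPM (log2 difference -0.74, SE 0.11, adjusted p = 0.00104).

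The genes that rose in DN1-DN3 cells were of several roles. Blk was at 30.9 and 30.8 CPM under the label WT and at 190.1 and 91.6 CPM under the label KO, a log2 difference of 2.17 ± 0.26 (SE, adjusted p = 0.000413). Fyn was at 83.4 and 70.0 CPM under the label WT and at 198 and 139 CPM under the label KO, a log2 difference of 1.13 ± 0.14 (SE, adjusted p = 0.000411). Zap70 was at 18.0 and 16.9 CPM under the label WT and at 57.6 and 31.1 CPM under the label KO, a log2 difference of 1.33 ± 0.21 (SE, adjusted p = 0.00163). In each the library labelled KO of pool 1 was the highest, and that of pool 2 lay between it and the pair labelled WT. The same order held for Txk, at 11.0 and 10.2 CPM against 54.0 and 31.1 CPM (log2 difference 1.99, SE 0.22, adjusted p = 0.000296), for Prkcq, at 121 and 97.4 CPM against 284 and 184 CPM (log2 difference 1.09, SE 0.19, adjusted p = 0.00294), for Ubash3b, at 13.8 and 10.8 CPM against 111 and 42.5 CPM (log2 difference 2.61, SE 0.33, adjusted p = 0.000563), and for Clnk, at 7.90 and 3.96 CPM against 105 and 28.0 CPM (log2 difference 3.46, SE 0.52, adjusted p = 0.00128). Cd3d, Tec, Grap, Ptpn6 and Sh2d2a rose by 0.31 to 0.61, of which Sh2d2a was not called with the pool as a block (0.52, adjusted p = 0.0512). That fit called 16 members and 28.7% of all genes, among them Syk (-0.54), Ptpn22 (0.57) and Ptprc (0.32), which were not called without it. Marker sums of other cells also differed between these libraries. The γδT17 sum was 111 and 104 CPM under the label WT and 1472 and 767 CPM under the label KO, with pool 1 the higher, and the sum of 9 B cell markers was 167 and 310 CPM against 1743 and 3792 CPM, with pool 2 the higher. IFN-γ-type markers summed to 547 and 594 CPM against 1168 and 1146 CPM, whereas cycling markers summed to less under the label KO, with 1350 and 1343 CPM against 838 and 1007 CPM. Of the IFN-γ-type sum Gzma alone made up 300 and 356 CPM against 498 and 603 CPM, so that the sum does not measure IFN-γ-type cells alone here either. Of the αβ T markers, whose whole sum was slightly lower under the label KO, Trac stood at 18.8 and 20.7 CPM against 154 and 65.6 CPM, with pool 1 the higher.

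The comparison was therefore repeated in cells with at least 1 UMI of Ptcra, which marks precursors on the way to a pre-TCR (3143 and 3652 cells labelled WT, 2036 and 3585 labelled KO). The γδT17 sum in them was 68.0 and 56.7 CPM against 628 and 470 CPM, and that of the B cell markers 121 and 212 CPM against 1000 and 1046 CPM. In these cells 11 members were called, 9 higher and 2 lower, where 12.5% of all genes were called. Blk was at 23.4 and 23.3 CPM against 103 and 63.4 CPM, a log2 difference of 1.82 (95% interval 1.43 to 2.22, adjusted p = 6.21e-05). Clnk, at 2.53 and 0.456 CPM against 20.3 and 7.35 CPM, differed by 3.18 (95% interval 1.71 to 4.65, adjusted p = 0.0155), Txk by 1.79 (95% interval 1.39 to 2.18, adjusted p = 7.9e-05) and Fyn by 1.04 (95% interval 0.80 to 1.27, adjusted p = 6.22e-05). Zap70, whose difference was 1.33 over all DN1-DN3 cells, differed by 0.64 (95% interval 0.32 to 0.96, adjusted p = 0.0139), and Ubash3b by 1.69 (95% interval 0.78 to 2.59, adjusted p = 0.0287). Themis differed in them by -0.98 (95% interval -1.24 to -0.72, adjusted p = 0.000231) and Ubash3a by -0.50 (95% interval -0.70 to -0.30, adjusted p = 0.00371). Without cells gated as B or myeloid cells 15 members and 22.5% of all genes were called, and Blk and Clnk differed by 2.18 and 3.48, although the B cell sum still stood at 914 and 1757 CPM under the label KO. Cells of both labels of a pool shared 1 droplet run and thus its free RNA, whose part was not tested. The number of calls rested on single libraries: it was 9 without the library labelled WT of pool 1, where 11% of all genes were called, and 20 without that labelled KO of pool 2, where 32.7% were. Of the 40 other pathway genes 16 were higher and 2 lower, among them Cd2 (2.82) and Lax1 (1.54).

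How the members differ between γδ T cells and the precursors they arise from was compared in the thymic libraries labelled WT, whose DN1-DN3 pair also served in the comparison above. Of the 39 members 30 differed, 23 higher and 7 lower in γδ T cells, against 47.2% of all genes, 24.3% higher and 22.8% lower, with medians of 0.46 and 0.00. Whether both sorts came from the same mice is not stated. With the pool within each sort as a block the counts were also 23 and 7, with 51.9% of all genes called. With the replicate number as 1 block over both sorts, a fit chosen after the data were seen, they were 22 and 7. In that fit 49.3% of all genes were called, and Sh2d1a was the call lost (0.56, adjusted p = 0.0701). Txk, at 11.0 and 10.2 CPM in DN1-DN3 cells and 116 and 110.2 CPM in γδ T cells, was higher by 3.43 ± 0.23 (SE, adjusted p = 4.48e-06). Blk went from 30.9 and 30.8 to 259 and 218 CPM (log2 difference 2.97, SE 0.27, adjusted p = 2.31e-05), and Ubash3b from 13.8 and 10.8 to 97.9 and 85.6 CPM (log2 difference 2.92, SE 0.34, adjusted p = 0.000102). No pair of libraries overlapped in these genes. Prkcq went from 121 and 97.4 to 557 and 512 CPM (log2 difference 2.32, SE 0.20, adjusted p = 1.56e-05), Zap70 from 18.0 and 16.9 to 80.4 and 72.6 CPM (log2 difference 2.15, SE 0.21, adjusted p = 3.88e-05) and Fyn from 83.4 and 70.0 to 335 and 299 CPM (log2 difference 2.07, SE 0.14, adjusted p = 3.61e-06). Syk moved the opposite way to Zap70, from 37.5 and 31.2 to 8.37 and 8.19 CPM (log2 difference -2.03, SE 0.20, adjusted p = 2.97e-05). Grap went from 13.9 and 14.4 to 46.5 and 46.6 CPM (log2 difference 1.74, SE 0.12, adjusted p = 3.4e-06), Cd247 from 419 and 365 to 1063 and 921 CPM (log2 difference 1.36, SE 0.11, adjusted p = 8.67e-06) and Lcp2 from 116 and 103 to 242 and 227 CPM (log2 difference 1.12, SE 0.12, adjusted p = 6.51e-05). Clnk, at 7.90 and 3.96 CPM in DN1-DN3 cells and 14.1 and 17.6 CPM in γδ T cells, was called (log2 difference 1.45, SE 0.49, adjusted p = 0.0344) but not without the DN1-DN3 library of pool 2 (1.04, adjusted p = 0.204), the γδ T library of pool 1 (1.57, adjusted p = 0.0727) or that of pool 2 (1.25, adjusted p = 0.137). Lck (-0.59) and Themis (-0.47) were lower in γδ T cells by less than 1, and Ubash3a and Vav3 were not called. Of the 40 other pathway genes 31 were higher and 3 lower, led by Cd2 (4.06), Cd5 (3.65) and Rasgrp1 (2.82).

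The members were next compared in splenic cells with at least 1 UMI of Trgv6, the variable gene of the Vγ6 receptor. Such cells numbered 403 and 528 in the libraries labelled WT, or 5.15% and 4.73% of cells, and 4939 and 7529 in those labelled KO, or 63.2% and 64.5%. In DN1-DN3 cells, which should lack this receptor, 0.416% and 0.321% of cells had such a UMI under the label WT and 1.30% and 1.12% under the label KO, at medians of 5591 to 6231 UMIs per cell against 4947 to 5458 in the spleen. A UMI of Trdv4, the δ gene usually paired with Trgv6, was found in 68.2% and 54.9% of the Trgv6 cells labelled WT and in 90.2% and 89.9% of those labelled KO. In thymic γδ T cells labelled WT 2.26% and 2.51% of cells had a Trgv6 UMI, and 21.4% and 21.0% of these had a Trdv4 UMI. Cd27, which γδT17 cells lack, stood at 79.7 and 174 CPM against 6.94 and 12.5 CPM, and the IFN-γ-type sum at 1272 and 2090 CPM against 419 and 347 CPM. The γδT17 sum was 4891 and 3975 CPM against 8317 and 8496 CPM, and the cycling sum 259 and 396 CPM against 100.4 and 79.0 CPM. Tcf7, a transcription factor gene of T cells, stood at 285 and 395 CPM against 24.1 and 38.1 CPM. The part of these differences in the results was not tested. Nor was that of free RNA in the droplet run that cells of both labels of a pool shared.

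Of the 37 members tested in Trgv6 cells (Syk and Themis2 were too rare), 20 differed, 6 higher and 14 lower under the label KO, against 22.2% of all 11980 genes tested, 9.97% higher and 12.2% lower. The median was -0.06 over the members and 0.00 over all genes. Themis was at 319 and 558 CPM under the label WT and at 6.05 and 13.0 CPM under the label KO, a log2 difference of -5.52 ± 0.51 (SE, adjusted p = 0.00415). Lck was at 156 and 264 CPM under the label WT and at 9.49 and 16.6 CPM under the label KO, a log2 difference of -4.03 ± 0.35 (SE, adjusted p = 0.00145). Vav3 was at 35.6 and 52.5 CPM under the label WT and at 2.17 and 2.02 CPM under the label KO, a log2 difference of -4.43 ± 0.21 (SE, adjusted p = 3.08e-06). In these 3 genes the library labelled WT of pool 2 was the highest. Ubash3a was at 18.0 and 32.5 CPM against 0.796 and 1.37 CPM (log2 difference -4.53, SE 0.34, adjusted p = 2.92e-05), Sh2d1a at 39.6 and 100.1 CPM against 5.67 and 9.27 CPM (log2 difference -3.25, SE 0.50, adjusted p = 0.0182) and Fyb at 158 and 301.7 CPM against 27.9 and 28.0 CPM (log2 difference -3.06, SE 0.27, adjusted p = 0.000478). Txk was at 160.0 and 217 CPM against 51.4 and 42.3 CPM (log2 difference -2.03, SE 0.16, adjusted p = 4.23e-05), Prkcq at 355 and 493 CPM against 106 and 113 CPM (log2 difference -1.97, SE 0.15, adjusted p = 2.73e-05) and Cblb at 172 and 271 CPM against 110.4 and 111 CPM (log2 difference -1.02, SE 0.17, adjusted p = 0.00301). All of these pairs were apart, with those labelled WT above. Blk and Clnk rose: Blk was at 696 and 512 CPM against 1242 and 1339 CPM (log2 difference 1.07, SE 0.18, adjusted p = 0.0024) and Clnk at 503 and 403 CPM against 1224 and 1282 CPM (log2 difference 1.44, SE 0.16, adjusted p = 0.000259). None of the 4 CD3 chains was called. Cd3g was at 1730 and 1452 CPM against 1790 and 1752 CPM (0.13, 95% interval -0.23 to 0.49, adjusted p = 0.632). Cd247 was at 790 and 641 CPM against 1002 and 1025 CPM (0.48, 95% interval 0.13 to 0.83, adjusted p = 0.0555), and it was called with the pool as a block. Lck and Themis were no longer called when either library labelled WT was left out. Without that of pool 1 the log2 differences were -4.30 for Lck and -5.82 for Themis (adjusted p = 0.0515 and 0.121), and without that of pool 2 they were -3.62 and -5.08 (adjusted p = 0.127 and 0.211). Of the 40 other pathway genes 6 were higher and 11 lower, led by Trat1 (-4.53), Cd28 (-4.02) and Cd2 (-2.24).

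These falls depended on which Trgv6 cells were taken. With a Trdv4 UMI also required, 14 members and 12.6% of all genes were called. Lck (-2.64, 95% interval -4.52 to -0.77, adjusted p = 0.112) and Themis (-4.29, 95% interval -7.09 to -1.50, adjusted p = 0.103) were not among them. In a definition chosen after the data were seen, cells with a UMI of Trgv6 and of Trdv4 and none of Cd27, the libraries labelled WT gave 242 and 214 cells and those labelled KO 4284 and 6286. The IFN-γ-type sum was then 253 and 426 CPM against 392 and 310 CPM, and the γδT17 sum 6292 and 6918 CPM against 8354 and 8531 CPM, while cycling markers stood at 346 and 714 CPM against 99.8 and 81.3 CPM. Tcf7 still stood apart, at 154 and 188 CPM against 22.2 and 35.4 CPM. The myeloid sum was 323 and 315 CPM against 312 and 336 CPM, and in the library labelled WT of pool 2 only 1 of its 10 genes had a UMI. In these cells 8 members were called, 5 higher and 3 lower, and the share called over all genes was lower as well, at 10.1%. Lck was at 15.1 and 30.0 CPM under the label WT and at 8.07 and 14.5 CPM under the label KO, a difference of -1.02 (95% interval -2.00 to -0.05, adjusted p = 0.197). Themis was at 16.3 and 50.9 CPM against 4.18 and 10.0 CPM, or -2.25 (95% interval -4.81 to 0.31, adjusted p = 0.264), and Fyb at 18.7 and 36.2 CPM against 25.9 and 25.7 CPM, or -0.12 (95% interval -0.60 to 0.35, adjusted p = 0.808). In Fyb the pair labelled KO lay between the libraries labelled WT. Ubash3a was at 0.602 and 1.39 CPM against 0.469 and 0.881 CPM (-0.55, 95% interval -2.74 to 1.63, adjusted p = 0.818), and Cblb (-0.11, 95% interval -0.35 to 0.12, adjusted p = 0.605), Sh2d1a (-1.26, 95% interval -2.11 to -0.41, adjusted p = 0.066) and Skap1 (0.01, 95% interval -0.21 to 0.23, adjusted p = 0.972) were not called.

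The members called in the narrowest definition were Vav3, Txk and Prkcq, lower under the label KO, and Blk, Clnk, Lat, Ptpn6 and Ptpn22, higher. All but Ptpn22 were also called over all Trgv6 cells. Vav3 was at 15.7 and 31.4 CPM under the label WT and at 1.80 and 1.76 CPM under the label KO, a difference of -3.76 (95% interval -4.54 to -2.98, adjusted p = 2.14e-05). Prkcq was at 219.8 and 234 CPM against 104 and 110.0 CPM, or -1.15 (95% interval -1.36 to -0.93, adjusted p = 8.47e-06), and Txk at 96.3 and 112 CPM against 50.5 and 41.6 CPM, or -1.24 (95% interval -1.55 to -0.93, adjusted p = 0.000109). In these 3 genes both libraries labelled KO were below both labelled WT. The same held, among others, for Lck, Themis and Sh2d1a, which were not called. Clnk was at 667 and 706 CPM against 1234 and 1298 CPM, or 0.82 (95% interval 0.60 to 1.04, adjusted p = 0.00016), and Blk at 918 and 895 CPM against 1253 and 1351 CPM, or 0.46 (95% interval 0.24 to 0.68, adjusted p = 0.0108). Lat differed by 0.53 (95% interval 0.30 to 0.75, adjusted p = 0.0046) and Ptpn6 by 0.46 (95% interval 0.21 to 0.71, adjusted p = 0.0212). Ptpn22 differed by 0.62 (95% interval 0.30 to 0.93, adjusted p = 0.0155), where its difference was -0.83 over all splenic γδ T cells, a call in the opposite direction, and -0.18, 95% interval -0.56 to 0.19, adjusted p = 0.495 over all Trgv6 cells. The part of the cycling markers, of Tcf7 and of γδT17 content in these differences was not tested. The summed share of the 39 members in these cells was 1.06% and 1.07% under the label WT and 1.19% and 1.20% under the label KO. Over all Trgv6 cells it was 1.17% and 1.29% against 1.18% and 1.19%, so that the pair labelled KO lay between the libraries labelled WT. That order depended on the denominator. Without the ribosomal, Gm-numbered and mitochondrial genes in it, the share over all Trgv6 cells was 1.53% and 1.67% against 1.47% and 1.45%. Both libraries labelled KO then lay below both labelled WT.

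**Figure D4:**
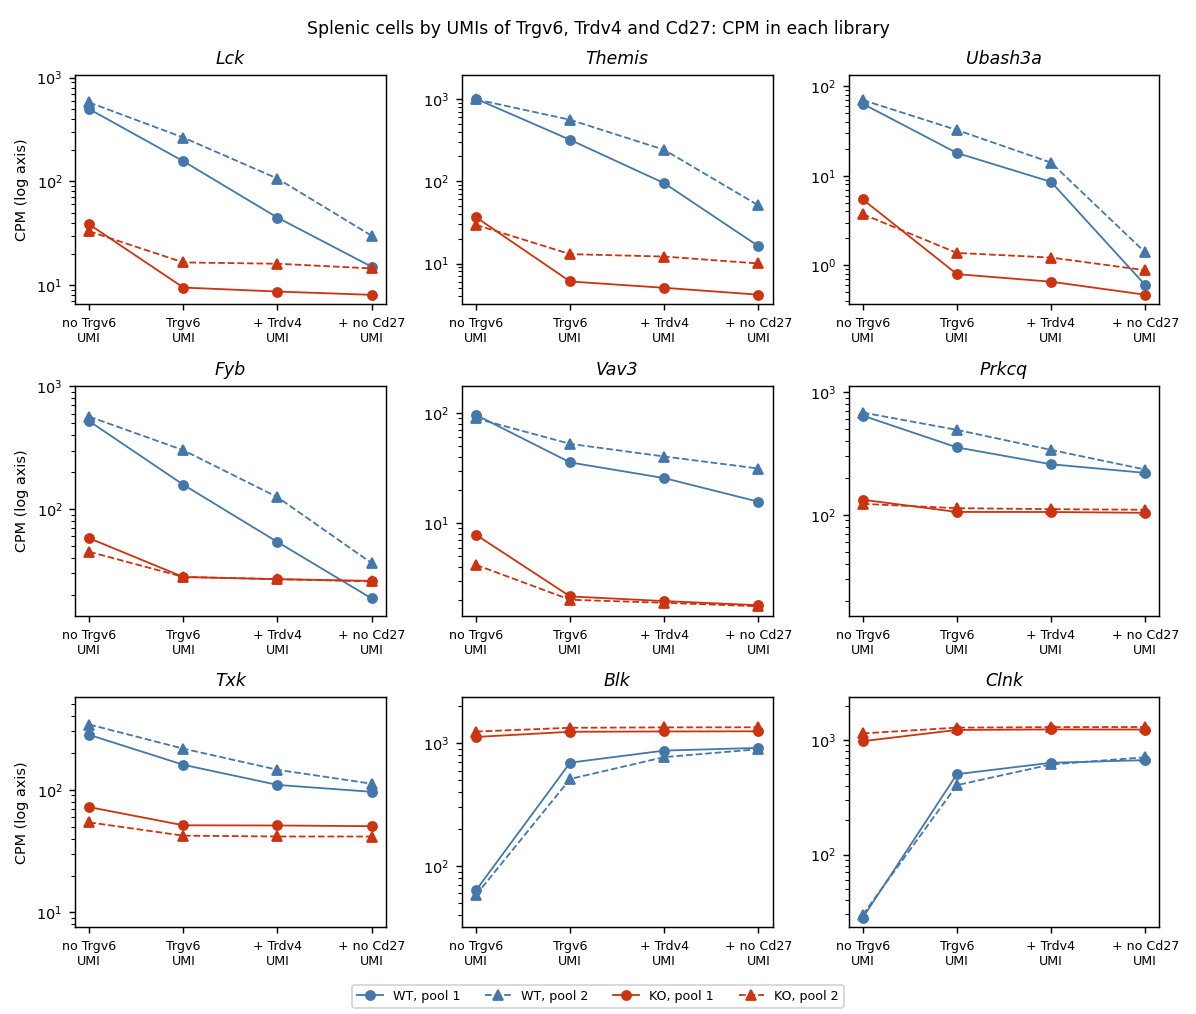
CPM on a log axis of 9 members in splenic cells without a Trgv6 UMI, with such a UMI, with a Trdv4 UMI as well, and with no Cd27 UMI in addition (x axis), joined by a line per library (blue, labelled WT; red, labelled KO; solid, pool 1; dashed, pool 2). Under the label WT, Lck, Themis, Ubash3a and Fyb drop at each narrower definition, Lck from 497 and 576 to 15.1 and 30.0 CPM. Vav3, Prkcq and Txk drop at each as well, Prkcq from 644 and 683 to 219.8 and 234 CPM. Vav3, Prkcq and Txk keep a gap to the libraries labelled KO, smaller on the log scale in the narrowest definition than in all Trgv6 cells. Lck and Themis also keep a smaller gap there, in which both libraries labelled KO lie lower, but were not called.

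Within the splenic libraries labelled WT, cells with a Trgv6 UMI were set against those without, with the library as a block. The Trgv6 cells labelled WT are those that also served in the comparison above. Marker sums differed between the cells compared. In cells without a Trgv6 UMI the γδT17 sum was 516 and 560 CPM, the IFN-γ-type sum 4349 and 4642 CPM and the cycling sum 92.9 and 44.5 CPM. B cell markers summed in them to 2118 and 229.5 CPM, against 159 and 163 CPM in Trgv6 cells, and the part of these sums was not tested. Of the 38 members tested 26 differed, 12 higher and 14 lower in Trgv6 cells, against 28.6% of all 13266 genes tested, 16.9% higher and 11.7% lower, and the medians were -0.16 and -0.03. Clnk went from 28.1 and 29.8 to 503 and 403 CPM, a difference of 3.98 ± 0.12 (SE, adjusted p = 6.62e-08). Blk went from 63.3 and 58.0 to 696 and 512 CPM, a difference of 3.33 ± 0.10 (SE, adjusted p = 2.85e-08). Ubash3a fell from 63.8 and 70.3 to 18.0 and 32.5 CPM (log2 difference -1.36, SE 0.22, adjusted p = 0.00585), Fyb from 520.4 and 567 to 158 and 301.7 CPM (log2 difference -1.26, SE 0.21, adjusted p = 0.0173) and Vav3 from 96.1 and 89.3 to 35.6 and 52.5 CPM (log2 difference -1.02, SE 0.17, adjusted p = 0.00447). Both libraries moved the same way in each of these genes. Fyb lost its call once genes of low counts were kept (adjusted p = 0.099). Lck (-1.35, 95% interval -2.32 to -0.38, adjusted p = 0.0689) and Themis (-1.20, 95% interval -2.81 to 0.42, adjusted p = 0.2) were not called. Of the 40 other pathway genes 10 were higher and 12 lower, led by Cd6 (-1.15), Cd2 (-1.06) and Sit1 (0.99).

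With the narrow definition, again chosen after the data were seen, 32 members differed between the Trgv6 cells labelled WT and the cells of the same libraries without a Trgv6 UMI, 13 higher and 19 lower, and 41.6% of all genes were called. Lck then differed by -4.52 (95% interval -6.41 to -2.63, adjusted p = 0.0205), Themis by -4.86 (95% interval -7.46 to -2.26, adjusted p = 0.0357), Ubash3a by -6.02 (95% interval -6.94 to -5.10, adjusted p = 5.12e-07) and Fyb by -4.25 (95% interval -4.62 to -3.89, adjusted p = 5.72e-08). Low levels of these 4 genes were thus also found in cells labelled WT. Blk and Clnk were higher in them by 3.99 (95% interval 3.87 to 4.10, adjusted p = 6.16e-15) and 4.65 (95% interval 4.51 to 4.79, adjusted p = 7.24e-15), and Vav3 differed by -1.93 (95% interval -2.56 to -1.30, adjusted p = 0.00124).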

How the data were processed

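The authors sorted the cells after magnetic depletion of B, myeloid and NK cells and made 10x libraries in which 2 hashtag antibodies per pool told WT from KO cells. Per the submitters' processing notes they used Cell Ranger 8.0.1 and GRCm39, and they assigned cells to hashtags with hashsolo. The deposited files hold UMI counts as they were read out, per gene and cell, for 12 demultiplexed libraries, with no normalization; in each, the library's own hashtag was the higher one in 99.6% or more of cells. Whether droplets with cells of both labels were removed before deposit is not given in the sources used here, and no doublet caller was run.

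From these counts, 96911 of 97404 cells were kept, with minimums of 500 UMIs and 200 genes and a maximum of 20% mitochondrial UMIs, and summed per library. CPM used all genes. For tests, 9545 ribosomal, Gm-numbered and mitochondrial genes were left out. edgeR 4.0.16 (R 4.3.3; TMM, filterByExpr, robust quasi-likelihood test, Benjamini-Hochberg adjustment over all genes, threshold 0.05) was fitted to all 12 libraries, and to the 4 splenic ones for Trgv6 cells. Groups came from the sample labels. The members and marker lists were chosen with earlier results of these data known. Values in every library were given for members called with an absolute log2 difference of at least 1 and a mean of at least 10 CPM, and of the other pathway genes the 3 with the largest differences were named, except for 1 value in DN1-DN3 cells that is not reported here. Intervals are 95% intervals of the fitted difference. Summation and tables used Python 3.11.15 with numpy 2.4.6 and pandas 2.3.3.

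Pool numbers pair the WT and KO libraries because, by the labels, both were run in 1 pool. Deviations from the group means, WT against KO of a pool, correlated at 0.486 in the spleen, 0.0527 in thymic γδ T cells and 0.39 in DN1-DN3 cells. The pool was a block in an alternative fit, taken at the mean of both pools. Other alternatives were DESeq2 1.42.0, other normalization factors, no filter on low counts, the excluded genes kept, stricter cell limits, the libraries of a comparison alone, single libraries left out, and other definitions of the cells. On simulated data with 200 changed genes of 14499 in the spleen comparison, 92% of genes changed 2-fold and 100% of those changed 4-fold were recovered. In the Trgv6 comparison (11693 genes) these shares were 84% and 100%, and in the comparison within WT libraries (13003 genes) 86% and 100%. The simulations gave every gene the same fixed spread and changed few genes, all of them well expressed. Those of the spleen and of Trgv6 cells held no effect shared within a pool. In the data 54.8% of genes were called in the spleen, so that recovery there, and of low members, may differ.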

Additional observations from a re-analysis of the deposited data

Results flagged for a closer look

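In 10 members the difference between the labels was itself different in splenic and thymic γδ T cells, by the interaction test (edgeR, adjusted p below 0.05) and by at least 1 on the log2 scale, where 15.1% of all genes were. The difference in the spleen minus that in the thymus was -3.37 for Themis, -3.03 for Lck, -2.67 for Vav3, -2.61 for Fyb, -2.60 for Sh2d1a and -2.56 for Ubash3a. It was -1.77 for Txk, -1.57 for Prkcq, -1.20 for Ptpn22 and 1.69 for Blk. Of the 10, all but Ptpn22 were called under every alternative run, and Ptpn22 was lost when 1 of 2 libraries was left out. Clnk, whose -1.81 was not called (adjusted p = 0.0639), was called with the pool as a block (-1.81, adjusted p = 0.0032). The γδT17 marker sum differed between the labels in both tissues, from 799 and 772 to 8085 and 8424 CPM in the spleen and from 979 and 835 to 5874 and 7123 CPM in the thymus, and its part in these differences was not tested.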

How the results depend on the processing

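The alternatives were followed for 72 differences of members, all called, with an absolute log2 difference of at least 1 and a mean of at least 10 CPM. They included the differences of spleen against thymus and left out smaller or uncalled ones. Of these 72, 63 were called under every alternative run and 9 were lost under some. Of 1000 values 971 kept their direction and call, 29 lost the call and 0 changed sign. The 9 were Ptpn22 (spleen against thymus), Clnk (γδ T against DN1-DN3), Fyb (within libraries labelled WT), and Lck, Themis, Ubash3a, Cblb, Sh2d1a and Fyb in Trgv6 cells. Beyond the values given above, Sh2d1a and Themis in Trgv6 cells lost their call once genes of low counts were kept (-3.21 and -5.48, adjusted p = 0.164 and 0.0656), Themis and Fyb were lost where Trgv6 had to be the leading Trgv gene (-4.92 and -2.60, adjusted p = 0.0873 and 0.13), and Clnk was lost once genes of low counts or the excluded genes were kept (1.46 in both, adjusted p = 0.125 and 0.0524).

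The number of members called in Trgv6 cells, 20, was 13 where Trgv6 had to lead, 10 with a Trdv4 and a Scart1 UMI also required and 8 with a Trdv4 and no Cd27 UMI (the latter pair added after the data were seen). The share called over all genes went from 22.2% to 12%, 12.5% and 10.1% with them, and the cause was not tested. Leaving out 1 library gave 28 to 31 members in the spleen, 25 to 29 in thymic γδ T cells, 9 to 20 in DN1-DN3 cells, 16 to 20 for spleen against thymus, 24 to 26 for γδ T against DN1-DN3, 16 to 21 in Trgv6 cells and 26 to 31 within libraries labelled WT. The share called over all genes in these fits was, in the same order, 43.1% to 45.1%, 35.5% to 41.4%, 11% to 32.7%, 17.2% to 23.4%, 31.1% to 35.5%, 14.4% to 26% and 24% to 30.8%. With the pool as replicate block the counts were 32, 29, 16, 25, 30 and 22. The share of all genes called was then 57.9%, 53.7%, 28.7%, 35.1%, 51.9% and 23.1%. In Trgv6 cells this block added Cd247 (0.49) and Nck1 (-0.34), and no difference given by library lost its call with it. With 1 replicate block over both thymic sorts, added after the data were seen, the fifth count was 29, with 49.3% of all genes called. Within libraries labelled WT, where the library is the block, the fit without it gave 20 members, 7 higher and 13 lower. It called 20.9% of all genes. DESeq2 gave 32, 29, 18, 24, 31, 21 and 25. The share of all genes called with it was 53.6%, 48.8%, 24.6%, 31.2%, 46.6%, 18.2% and 21.4%. With only the tested genes in the denominator, the summed share under the label KO minus that under WT was -0.4606 percentage points in the spleen in place of -0.2351. It was 0.0752 in place of 0.0431 in thymic γδ T cells, 0.0884 in place of 0.0663 in DN1-DN3 cells and -0.1459 in place of -0.0452 in Trgv6 cells.

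With 2 libraries per group, a fit without 1 of them assumes that the lone library varies as the others do. Trgv6 cells labelled WT numbered 403 and 528, so that low members such as Ubash3a rested on few UMIs, and wide intervals do not show that levels were equal. A UMI of Trgv6 does not prove a Vγ6 receptor, as its share in DN1-DN3 cells shows.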
